A study of Homo sapiens with 36 samples.

Results

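The EGF receptors and their ligands were read in A549 cells exposed to cigarette smoke extract (CSE). A549, grown from an adenocarcinoma of the human lung, is used as a model of the alveolar epithelium, and CSE is culture medium through which the smoke of cigarettes has been drawn. The 9 genes were chosen by name: the receptor genes EGFR, ERBB2 and ERBB3 and the ligand genes AREG, EREG, HBEGF, TGFA, BTC and NRG1. A gene was read from the transcript cluster, the set of probes laid over its exons, that carried its symbol alone, and where several did so from the brightest of them on average over the 36 arrays. Of the 9 genes 8 were read, out of 18417 genes named in this way and 33297 transcript clusters in all. AREG, which encodes amphiregulin, is not analysed here.

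The cells were kept without serum for 24 hours and then held in DMEM with 1% fetal bovine serum, alone in control cells or with CSE at 1%, 5% or 10%, renewed every day, for 1, 3 or 5 weeks with weekly passages. Each of the 12 groups had 3 arrays, which the study describes as individual experiments on this 1 line. Values are the log2 signals that the authors deposited after RMA, and a difference of 1 is a change of 2-fold. A gene was called higher or lower where the Benjamini-Hochberg adjusted p of limma over all 33297 transcript clusters was under 0.05. Each array read the RNA of a whole culture, so that fewer cells expressing a gene and less RNA of it per cell cannot be told apart.

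The 3 control arrays of 5 weeks stood apart from the other 33. The SD of their log2 values was 2.15 to 2.21, against 2.25 to 2.31 on the others, and the sample labels conflict for them: titles and short codes give 5 weeks, while the free-text descriptions, and for replicates 1 and 2 the source names, give 3 weeks. Their part in the results was not tested, and the 5-week results below are therefore also given against the 6 control arrays of weeks 1 and 3. The epithelial keratin genes KRT8 and KRT18 were bright throughout, with group means from 13.03 to 13.61 and from 13.05 to 13.53. Of the other epithelial markers, KRT7 was at 11.10 to 12.22, CDH1 at 10.66 to 11.35, EPCAM at 8.42 to 10.77 and KRT19 at 8.38 to 9.78. The alveolar type II genes SFTPB, SFTPC and NAPSA, at 5.97 to 6.58, lay below the median level of all transcript clusters, 6.79, in every group, while ABCA3, also of type II cells, was at 8.17 to 8.86. Among 7 markers of leukocytes, endothelium and fibroblasts, PTPRC was at 3.70 to 4.29 and PECAM1 at 4.83 to 5.30, the collagen gene COL1A1 was at 7.56 to 7.91, COL1A2 and COL3A1 lay between 6.31 and 6.97, and CD68, also a lysosomal gene of many cells, was at 9.18 to 11.11.

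The EGF receptor family consists of tyrosine kinases of the cell surface that pair when a ligand binds and then signal through RAS and ERK and through PI3K and AKT. EGFR binds EGF, TGFA, AREG, EREG, BTC and HBEGF, ERBB3 binds neuregulins such as NRG1, has little kinase activity of its own and signals through its partner, and ERBB2 has no known ligand and is the favoured partner of the others. The ligands are made as membrane precursors and are shed by metalloproteases, above all ADAM17 and ADAM10. In the airway and alveolar epithelium these receptors take part in growth, mucus production and repair of wounds.

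With CSE the receptor genes moved in opposite directions and most ligand genes rose. EGFR was higher in 8 of 9 comparisons with the control cells of the same week, by up to 2.5-fold, while ERBB2 was lower in 8 of 9 and ERBB3 in 9 of 9. NRG1, the ligand of ERBB3, and EREG were higher in 9 of 9, and TGFA in 8 of 9. BTC was higher in 4 of 9 by small amounts. HBEGF was higher in 2, lower in 3 and past the test in neither direction in 4. The fold changes of all 8 genes are drawn by week with their intervals.

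**Figure D1:**
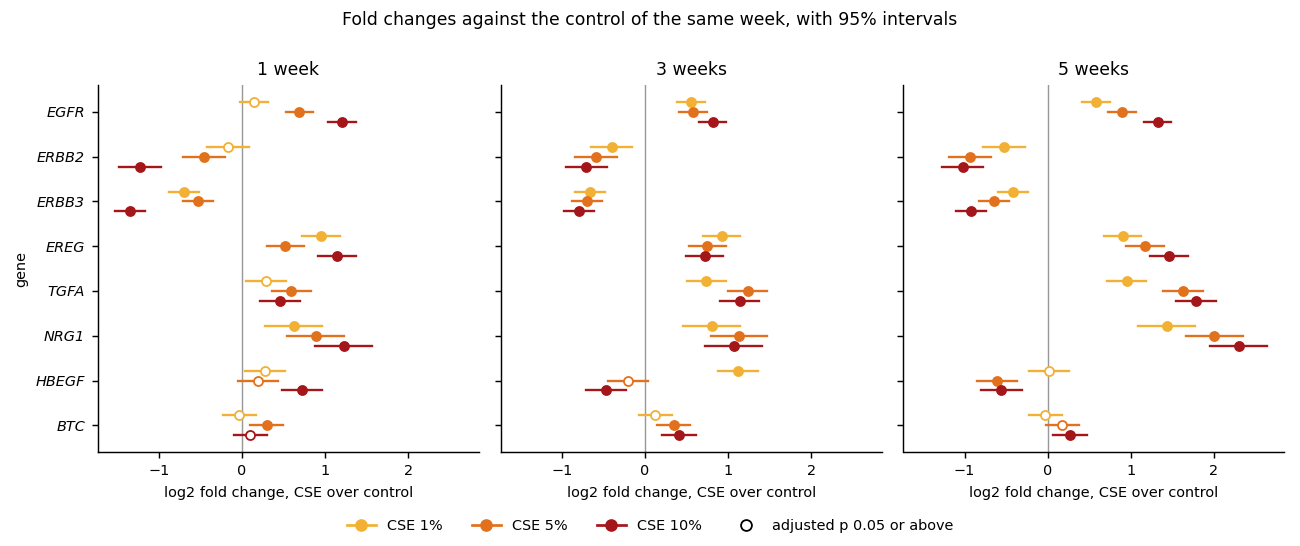
Log2 fold change of each gene with CSE 1%, 5% and 10% over the control cells of the same week (x axis) at 1, 3 and 5 weeks, with 95% intervals from limma; filled points have an adjusted p under 0.05. EGFR, EREG, TGFA and NRG1 lie to the right of 0 in every panel, ERBB2 and ERBB3 to the left, and HBEGF to the right at 1 week and on both sides of 0 at 3 and 5 weeks.

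Set against the share of all transcript clusters that were called, the counts ran as follows. With CSE 1% at 1 week 2 of the 8 genes were higher (background 3.41% of transcript clusters) and 1 was lower (1.9%). With CSE 5% at 1 week 5 were higher (5.99%) and 2 lower (4.84%), and with CSE 10% at 1 week also 5 (8.27%) and 2 (8.44%). At 3 weeks, 5 were higher and 2 lower with CSE 1% (5.67% and 5.81%), 5 and 2 with CSE 5% (9.7% and 9.93%), and 5 and 3 with CSE 10% (14% and 12.5%). At 5 weeks the background itself was large: 4 genes were higher and 2 lower with CSE 1% where 20.3% and 33.5% of transcript clusters were, 4 and 3 with CSE 5% where 23% and 40.3% were, and 5 and 3 with CSE 10% where 21.9% and 39.6% were. Taken over the 8 genes, the median of the log2 fold changes stood at 0.21, 0.41 and 0.59 with CSE 1%, 5% and 10% after 1 week, at 0.65, 0.46 and 0.56 after 3 weeks and at 0.30, 0.53 and 0.79 after 5 weeks, where that of all transcript clusters was between -0.04 and 0.01 at 1 and 3 weeks and -0.14, -0.17 and -0.18 at 5 weeks.

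The study's own rule, a log2 fold change beyond 1 with B, limma's log odds of a change, above 0, called fewer. At 1 week it called 3 genes higher (0.691% of transcript clusters) and 2 lower (0.829%) with CSE 10% (EGFR, EREG and NRG1, and ERBB2 and ERBB3), while no gene passed with CSE 1% (0.243% higher and 0.0811% lower) or CSE 5% (0.411% and 0.484%). At 3 weeks HBEGF was higher with CSE 1% (background 0.456%, and 0.291% lower), and TGFA and NRG1 were higher with CSE 5% (1.2%, and 0.544% lower) and with CSE 10% (1.45%, and 1.06% lower). By 5 weeks NRG1 was higher with CSE 1% (3.22%, and 0.805% lower), EREG, TGFA and NRG1 with CSE 5% (7.14%, and 2.02% lower), and EGFR, EREG, TGFA and NRG1 with CSE 10% (7.02%), where ERBB2 was lower (2.06%).

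The promoters of 3 genes that rose in most comparisons, EGFR, EREG and TGFA, and of HBEGF, which did not move with them, are printed as the 250 bases before the first gene start of RefSeq on GRCh38.p14, read 5′ to 3′ on the strand of the gene. They were searched on both strands for the cAMP response element TGACGTCA, the AP-1 site TGANTCA, the core TGACNNNGC of the antioxidant response element to which NRF2 binds, and the core GCGTG of the element bound by the aryl hydrocarbon receptor, a sensor of smoke constituents. Capitals mark a match, which among these 4 windows EREG alone held, as the reverse complement of GCGTG 249 bases before the start. EGFR and TGFA each have a second RefSeq window that is not printed, in which the AP-1 site occurred 2 times (EGFR) and GCGTG 1 time (TGFA). Of 35116 promoter windows of the same length, 1.65% held the first motif, 6.57% the second, 10.9% the third and 32.2% the fourth. The G and C content of these windows was 73.6% for EGFR, 58.0% for EREG, 75.6% for TGFA and 76.4% for HBEGF. EREG lies on chromosome 4 in a row of genes of the family, with EPGN before it and AREG and BTC after it.
EGFR promoter, chr7:55018767-55019016, plus strand: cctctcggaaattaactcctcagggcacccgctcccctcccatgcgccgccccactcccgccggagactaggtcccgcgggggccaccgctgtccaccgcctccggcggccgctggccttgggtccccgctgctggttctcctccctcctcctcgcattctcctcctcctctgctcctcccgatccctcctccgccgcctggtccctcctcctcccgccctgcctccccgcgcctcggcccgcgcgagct
EREG promoter, chr4:74364895-74365144, plus strand: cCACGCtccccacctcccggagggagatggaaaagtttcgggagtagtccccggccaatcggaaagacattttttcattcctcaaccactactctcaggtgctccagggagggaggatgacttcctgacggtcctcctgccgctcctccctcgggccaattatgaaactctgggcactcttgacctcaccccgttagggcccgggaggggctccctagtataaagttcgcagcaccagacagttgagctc
TGFA promoter, chr2:70553827-70554076, minus strand: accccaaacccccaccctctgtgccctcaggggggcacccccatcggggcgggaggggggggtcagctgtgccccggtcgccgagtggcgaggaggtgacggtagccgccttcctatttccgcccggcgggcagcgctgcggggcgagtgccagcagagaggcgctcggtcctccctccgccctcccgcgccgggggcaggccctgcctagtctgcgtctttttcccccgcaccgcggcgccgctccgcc
HBEGF promoter, chr5:140346604-140346853, minus strand: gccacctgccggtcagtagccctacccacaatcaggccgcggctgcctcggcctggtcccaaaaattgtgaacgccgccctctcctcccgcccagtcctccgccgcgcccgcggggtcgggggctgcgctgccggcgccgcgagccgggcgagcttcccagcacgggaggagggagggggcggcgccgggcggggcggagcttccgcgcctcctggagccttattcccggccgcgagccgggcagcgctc

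EGFR, the receptor of most of these ligands, was higher with CSE at each week, most with CSE 10%. At 1 week its levels were 9.22, 9.21 and 9.10 in control cells, 9.38, 9.20 and 9.37 with CSE 1%, 9.95, 9.83 and 9.81 with CSE 5% and 10.40, 10.45 and 10.29 with CSE 10%. The arrays with CSE 5% and 10% lay above all 3 controls, while those with CSE 1% overlapped them. Its log2 fold changes were 0.14, 0.69 and 1.20 (standard error 0.081, adjusted p = 0.354, 3.6e-07 and 3.3e-12). At 3 weeks EGFR was at 9.24, 9.12 and 9.11 in control cells, 9.72, 9.71 and 9.70 with CSE 1%, 9.82, 9.67 and 9.71 with CSE 5% and 9.97, 9.95 and 9.98 with CSE 10%. Every exposed array was above every control array. The differences were 0.56, 0.58 and 0.81 (adjusted p = 1.2e-05, 3.5e-06 and 7.8e-09). By 5 weeks the levels stood at 8.58, 8.86 and 8.91 in control cells, 9.31, 9.45 and 9.33 with CSE 1%, 9.83, 9.53 and 9.67 with CSE 5% and 10.10, 10.12 and 10.09 with CSE 10%. No exposed array overlapped the controls, of which replicate 1 was the lowest. The rise was 0.58, 0.89 and 1.32 (adjusted p = 3e-06, 7.5e-10 and 2.4e-13), or 2.5-fold with CSE 10%. In order of level the first 3 of 12 groups were those of CSE 10% and the last 3 the control groups. The steps that set these apart from their neighbours did not pass the test (adjusted p = 0.379 and 0.354). Here and below, the order was taken from the values then tested, which sets the nearest means side by side. The p-values of such steps are therefore descriptive only. Of the 11 steps 3 passed: CSE 10% at 1 week to 5 weeks (0.0198), CSE 5% to CSE 1% at 5 weeks (0.0237) and control cells at 3 weeks to 5 weeks (0.000457).

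ERBB2, the partner receptor without a ligand of its own, went the other way. At 1 week ERBB2 measured 9.38, 9.31 and 9.52 in control cells, 9.27, 9.22 and 9.21 with CSE 1%, 8.93, 9.07 and 8.83 with CSE 5% and 8.28, 8.07 and 8.18 with CSE 10%. All exposed arrays were below the controls, and those with CSE 10% were the lowest. The log2 fold changes were -0.17, -0.46 and -1.23 (standard error 0.12, adjusted p = 0.493, 0.0117 and 8.8e-09), of which that with CSE 1% did not pass, with an interval of -0.42 to 0.08. The call with CSE 5% was lost without control replicate 3 (adjusted p = 0.0741) or without CSE 5% replicate 3 (0.066). At 3 weeks it was 9.60, 9.78 and 9.19 in control cells, 8.84, 9.14 and 9.38 with CSE 1%, 8.91, 8.93 and 8.95 with CSE 5% and 8.82, 8.77 and 8.85 with CSE 10%. Control replicate 3 lay below the other controls and inside the range of CSE 1%, while CSE 5% and 10% did not overlap the controls. ERBB2 had log2 fold changes of -0.40, -0.59 and -0.70 (adjusted p = 0.0289, 0.000707 and 6.1e-05). The call with CSE 1% at 3 weeks was lost when any 1 of 4 arrays was left out, control replicate 1 or 2 or CSE 1% replicate 1 or 2 (adjusted p = 0.0666 to 0.251). At 5 weeks the levels were 9.53, 9.48 and 9.60 in control cells, 9.23, 9.05 and 8.74 with CSE 1%, 8.58, 8.57 and 8.64 with CSE 5% and 8.47, 8.60 and 8.47 with CSE 10%. Again no exposed array reached the controls. The differences were -0.53, -0.94 and -1.02 (adjusted p = 0.000895, 3.9e-07 and 9.1e-08), so that CSE 10% left 0.492 of the control level. The largest of the 11 steps in its order of levels, 0.34 between CSE 10% at 5 weeks and CSE 10% at 1 week, had an adjusted p of 0.0566. As such steps join the nearest means, this does not show that neighbouring groups are alike.

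ERBB3, the receptor for neuregulins, was lower in all 9 comparisons. Its 1-week levels were 10.57, 10.60 and 10.49 in control cells, 9.90, 9.79 and 9.86 with CSE 1%, 10.01, 10.05 and 10.02 with CSE 5% and 9.29, 9.07 and 9.26 with CSE 10%. CSE 10% lay lowest by a wide margin, and no exposed array overlapped the controls. The log2 fold changes were -0.70, -0.53 and -1.35 (standard error 0.087, adjusted p = 2.9e-06, 7.6e-05 and 1.7e-12). At 3 weeks ERBB3 was at 10.20, 10.14 and 9.84 in control cells, 9.30, 9.41 and 9.50 with CSE 1%, 9.32, 9.39 and 9.37 with CSE 5% and 9.30, 9.21 and 9.26 with CSE 10%. The 3 concentrations lay close together, all below the controls. They differed from control by -0.66, -0.70 and -0.80 (adjusted p = 3.4e-06, 6.6e-07 and 5e-08). At 5 weeks it measured 9.61, 9.68 and 9.73 in control cells, 9.44, 9.26 and 9.07 with CSE 1%, 9.05, 9.002 and 9.04 with CSE 5% and 8.61, 8.81 and 8.83 with CSE 10%. The groups were again apart, and the controls themselves were lower than at 1 week. The log2 fold changes were -0.42, -0.64 and -0.93 (adjusted p = 0.000338, 7.8e-07 and 1.5e-09).

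**Figure D2:**
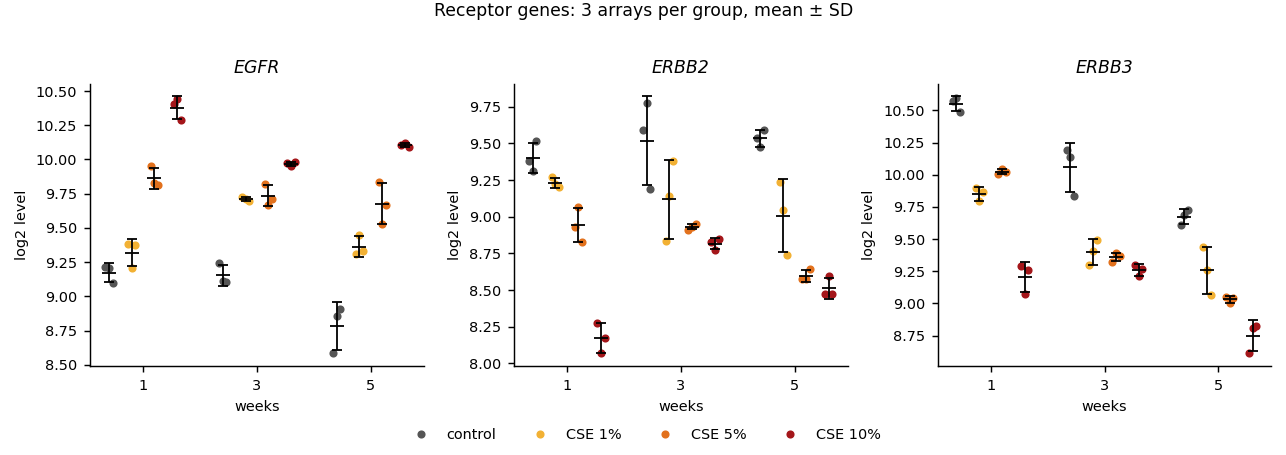
Log2 levels of EGFR, ERBB2 and ERBB3 (y axis, a scale of its own for each gene) on each of 3 arrays per group at 1, 3 and 5 weeks (x axis), with mean and SD; colours give control cells and CSE 1%, 5% and 10%. EGFR is highest with CSE 10% within each week, ERBB2 and ERBB3 are lowest with it, and the ERBB3 level of control cells is lower at each later week.

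NRG1, neuregulin 1, the ligand of ERBB3, was higher with CSE at each week and concentration. At 1 week its levels were 8.81, 8.78 and 8.27 in control cells, 9.41, 9.05 and 9.25 with CSE 1%, 9.61, 9.40 and 9.50 with CSE 5% and 9.85, 9.89 and 9.79 with CSE 10%. All exposed arrays were above the controls, of which replicate 3 was low. Log2 fold changes over control were 0.62, 0.89 and 1.22 (standard error 0.17, adjusted p = 0.0237, 0.000406 and 2.4e-06). With CSE 1% the call was lost without control replicate 3 (adjusted p = 0.185), CSE 1% replicate 1 (0.126) or CSE 1% replicate 3 (0.0848). At 3 weeks NRG1 was at 8.97, 8.96 and 8.96 in control cells, 9.80, 9.68 and 9.83 with CSE 1%, 10.10, 9.93 and 10.26 with CSE 5% and 9.99, 10.04 and 10.05 with CSE 10%. The 3 controls were nearly alike and far below all exposed arrays. Differences from control were 0.80, 1.13 and 1.07 (adjusted p = 0.00121, 8.4e-06 and 1.5e-05). At 5 weeks the arrays read 7.37, 8.43 and 8.28 in control cells, 9.29, 9.60 and 9.48 with CSE 1%, 10.11, 9.87 and 10.10 with CSE 5% and 10.27, 10.30 and 10.39 with CSE 10%. Control replicate 1 lay well below the other controls, and all exposed arrays were above all controls. NRG1 rose by 1.43, 2.00 and 2.30 (adjusted p = 2e-07, 1.5e-10 and 8.9e-12), or 2.7-fold, 4.0-fold and 4.91-fold. Without control replicate 1 the 3 differences were 1.10, 1.67 and 1.97. NRG1 had a further transcript cluster of its own name, built on 20 accessions where the one used here was built on 1, and it was higher in all 9 comparisons as well, by 0.58, 0.60 and 0.81 in the cells of week 1, 0.71, 0.93 and 0.86 in those of week 3 and 0.79, 1.59 and 1.70 in those of week 5.

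TGFA, transforming growth factor alpha, a ligand of EGFR that epithelial cells make for themselves, rose more at the later weeks. At 1 week TGFA was at 7.76, 8.09 and 7.86 in control cells, 8.26, 8.10 and 8.22 with CSE 1%, 8.47, 8.51 and 8.52 with CSE 5% and 8.47, 8.39 and 8.23 with CSE 10%. No exposed array overlapped the controls, though CSE 1% replicate 2 exceeded the highest control by little. Over control, the log2 fold changes were 0.29, 0.59 and 0.46 (standard error 0.12, adjusted p = 0.173, 0.000644 and 0.00555), the first of which did not pass, with an interval of 0.05 to 0.53. Its 3-week levels were 7.68, 7.47 and 7.50 in control cells, 8.23, 8.26 and 8.38 with CSE 1%, 8.74, 8.85 and 8.77 with CSE 5% and 8.59, 8.66 and 8.81 with CSE 10%. All concentrations were clear of the controls. They were higher by 0.74, 1.23 and 1.14 (adjusted p = 4.1e-05, 3.7e-09 and 1.4e-08). At 5 weeks TGFA measured 6.57, 7.13 and 7.19 in control cells, 7.91, 8.06 and 7.76 with CSE 1%, 8.73, 8.53 and 8.52 with CSE 5% and 8.81, 8.64 and 8.78 with CSE 10%. Control replicate 1 was the lowest array of all. The differences were 0.95, 1.63 and 1.78 (adjusted p = 4.5e-07, 6.6e-12 and 9.6e-13), or 3.44-fold with CSE 10%. The levels with CSE 10% averaged 8.36 ± 0.12 at 1 week, 8.69 ± 0.12 at 3 weeks and 8.74 ± 0.091 at 5 weeks (SD, n = 3 each), and those of control cells 7.91 ± 0.17, 7.55 ± 0.12 and 6.96 ± 0.34.

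EREG, epiregulin, a ligand of EGFR, was higher at every concentration and week. At 1 week EREG read 9.66, 9.75 and 9.54 in control cells, 10.62, 10.52 and 10.66 with CSE 1%, 10.29, 10.03 and 10.19 with CSE 5% and 10.76, 10.92 and 10.71 with CSE 10%. CSE 5% lay between the controls and the other concentrations, without overlap. In log2 terms the changes were 0.95, 0.52 and 1.14 (standard error 0.11, adjusted p = 7e-07, 0.00141 and 4.4e-09). The 3-week arrays gave 9.32, 9.19 and 9.40 in control cells, 10.43, 10.27 and 9.97 with CSE 1%, 10.10, 9.97 and 10.08 with CSE 5% and 10.01, 10.02 and 10.02 with CSE 10%. Every exposed array exceeded the controls, and the concentrations overlapped each other. EREG was higher by 0.92, 0.75 and 0.72 (adjusted p = 5.3e-07, 7.2e-06 and 1e-05). At 5 weeks the levels were 8.58, 8.72 and 8.73 in control cells, 9.25, 9.74 and 9.75 with CSE 1%, 9.95, 9.79 and 9.80 with CSE 5% and 10.14, 10.16 and 10.11 with CSE 10%. CSE 1% replicate 1 was low within its group but above all controls. The differences were 0.90, 1.17 and 1.46 (adjusted p = 3.6e-07, 1.4e-09 and 1.6e-11). The exposed means did not exceed those of 1 week, as CSE 10% averaged 10.14 ± 0.026 at 5 weeks and 10.79 ± 0.11 at 1 week, while control cells averaged 8.68 ± 0.085 and 9.65 ± 0.10 (SD, n = 3 each).

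HBEGF, the heparin-binding ligand of EGFR, changed direction with week and concentration. At 1 week its arrays were at 8.61, 8.99 and 9.03 in control cells, 8.99, 9.18 and 9.29 with CSE 1%, 9.40, 8.97 and 8.84 with CSE 5% and 9.69, 9.68 and 9.41 with CSE 10%. Those with CSE 10% were above all others, and CSE 1% and 5% overlapped the controls. Relative to control the log2 changes were 0.27, 0.19 and 0.72 (standard error 0.12, adjusted p = 0.202, 0.338 and 3.9e-05). At 3 weeks HBEGF read 7.54, 7.47 and 7.45 in control cells, 8.68, 8.62 and 8.52 with CSE 1%, 7.36, 7.27 and 7.22 with CSE 5% and 7.00, 7.08 and 6.98 with CSE 10%. CSE 1% stood above the controls by about 1 on the log2 scale, while CSE 5% and 10% lay below them, all without overlap. The differences were 1.12, -0.20 and -0.47 (adjusted p = 6.2e-08, 0.247 and 0.00309), so that CSE 1% was 2.17-fold higher and CSE 10% was at 0.722 of the control level. The 5-week levels were 7.95, 7.73 and 7.81 in control cells, 7.90, 7.83 and 7.82 with CSE 1%, 7.12, 7.27 and 7.27 with CSE 5% and 7.34, 7.38 and 7.09 with CSE 10%. CSE 1% overlapped the controls, and CSE 5% and 10% were below them. They differed by 0.02, -0.61 and -0.56 (adjusted p = 0.906, 8.7e-05 and 0.000234). From highest to lowest mean, the 4 groups of 1 week came first, then CSE 1% at 3 weeks. The step between these, from control cells at 1 week, did not pass the test (0.27, adjusted p = 0.0869). Of the 11 steps 3 passed: CSE 10% to CSE 1% at 1 week (0.0106), CSE 1% at 3 weeks to 5 weeks (0.000143) and control cells at 5 weeks to 3 weeks (0.0169).

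BTC, betacellulin, which binds EGFR and ERBB4, changed little. Its group means lay between 6.17 and 6.62, below the median of all transcript clusters, and the deposited values carry no call of detection. The 4 calls were with CSE 5% at 1 week (0.30, standard error 0.098, adjusted p = 0.0469), CSE 5% and 10% at 3 weeks (0.35 and 0.41, adjusted p = 0.0106 and 0.00199) and CSE 10% at 5 weeks (0.27, adjusted p = 0.02). The array behind the highest value at 3 weeks was CSE 10% replicate 3, at 6.84, against 6.42 and 6.47 in its other replicates. Calls of BTC were lost without single arrays: CSE 5% at 1 week without any of 4 arrays (control replicate 1 or 3, CSE 5% replicate 1 or 2, adjusted p = 0.0785 to 0.228), CSE 5% at 3 weeks without control replicate 2 (0.055), and CSE 10% at 5 weeks without control replicate 3 (0.107) or CSE 10% replicate 2 (0.0768). Among the other genes, 2 of the 11 steps between neighbouring groups in order of level passed for each of ERBB3, EREG and TGFA and 1 for NRG1.

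**Figure D3:**
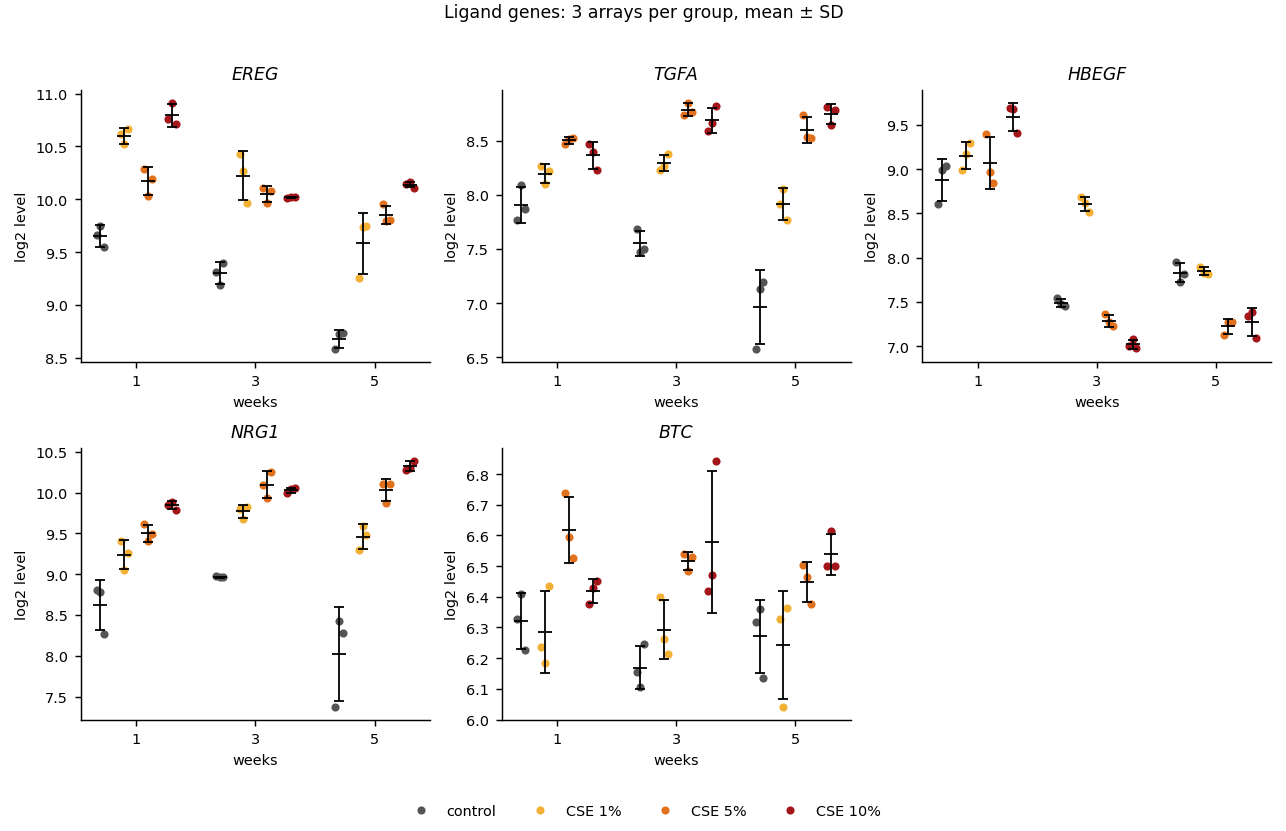
Log2 levels of EREG, TGFA, HBEGF, NRG1 and BTC (y axis, a scale of its own for each gene) on each of 3 arrays per group at 1, 3 and 5 weeks (x axis), with mean and SD; colours give control cells and CSE 1%, 5% and 10%. The control points of EREG and TGFA are lowest at 5 weeks, those of NRG1 at 5 weeks overlap those of 1 week, and the HBEGF groups of 3 and 5 weeks lie below those of 1 week by their means, CSE 1% at 3 weeks the nearest to them.

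The concentrations were compared with each other within each week, to ask whether the response was graded. EGFR was higher with CSE 10% than with CSE 1% by 1.06 at 1 week, 0.26 at 3 weeks and 0.74 at 5 weeks (adjusted p = 6.5e-11, 0.035 and 1.4e-07), and the 3-week call was lost without any of 5 of the 6 arrays (adjusted p = 0.0769 to 0.119). At 1 week ERBB2 and ERBB3 were lower with CSE 10% than with CSE 5%, with log2 fold changes of -0.77 and -0.82 (adjusted p = 0.000156 and 2.7e-07). EREG broke the order at 1 week, where CSE 5% was below CSE 1% with a log2 fold change of -0.43 (adjusted p = 0.0113), a call lost without CSE 1% replicate 3 (0.0619) or CSE 5% replicate 2 (0.0955). HBEGF at 3 weeks was lower with CSE 5% than with CSE 1%, at -1.32, and with CSE 10% than with CSE 1%, at -1.59 (adjusted p = 1.1e-08 and 1.4e-10). TGFA at 5 weeks was higher with CSE 5% and with CSE 10% than with CSE 1%, by 0.68 and 0.83 (adjusted p = 0.000367 and 8.9e-06). NRG1 at 5 weeks was higher by 0.87 with CSE 10% than with CSE 1% (adjusted p = 0.00067). At 5 weeks, with CSE 10% and CSE 5%, EGFR differed by 0.43 (adjusted p = 0.00168). In a fit of the arrays of 5 weeks alone this call was lost (adjusted p = 0.137), as was that of TGFA between CSE 5% and CSE 1% (0.052). Between CSE 10% and CSE 5% at 3 weeks the largest difference was that of HBEGF, -0.27, with an adjusted p of 0.354 and an interval of -0.51 to -0.03.

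Beside the share of all transcript clusters, the counts between concentrations were these. With CSE 10% over CSE 1%, 3 genes were higher (4.73%) and 2 lower (7.17%) at 1 week, 2 were higher (6.02%) and 1 lower (6.26%) at 3 weeks, and 4 were higher (3.73%) and 3 lower (4.95%) at 5 weeks. With CSE 5% over CSE 1%, 2 were higher (2.97%) and 1 lower (3.77%) at 1 week, 1 was higher (2.84%) and 1 lower (2.68%) at 3 weeks, and 2 were higher (2.28%) and 1 lower (1.26%) at 5 weeks. CSE 10% over CSE 5% gave 3 higher (1.09%) and 2 lower (2.18%) at 1 week and 1 higher, EGFR, at 5 weeks (0.426%, and 1.8% lower), while at 3 weeks, where 0.21% of transcript clusters were higher and 0.757% lower, 2 of the 8 genes, EGFR and HBEGF, had an unadjusted p under 0.05 in limma's test and 0 an adjusted p under it.

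Control cells changed over the weeks as well, and such a change enters every comparison with them. At 3 weeks against 1 week 4 of the 8 genes were lower in control cells, where 5.27% of transcript clusters were (6.23% were higher): HBEGF at -1.39, ERBB3 at -0.50, TGFA at -0.36 and EREG at -0.35 (adjusted p = 7.6e-10, 0.000217, 0.0443 and 0.0352). Those of TGFA and EREG were each lost without any of 4 arrays. At 5 weeks against 3 weeks 5 were lower, where 21.8% of transcript clusters were, NRG1 at -0.94, EREG at -0.62, TGFA at -0.59, ERBB3 at -0.38 and EGFR at -0.37. HBEGF alone was higher, by 0.34 (background 31.7%, adjusted p = 0.0169, 0.0886 without control replicate 1 of 5 weeks). At 5 weeks against 1 week 6 of the 8 were lower (18.4%, and 28.2% higher), all but ERBB2 and BTC. ERBB2 in control cells averaged 9.40 ± 0.10, 9.52 ± 0.30 and 9.54 ± 0.058 at 1, 3 and 5 weeks (SD, n = 3 each).

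Against the 6 control arrays of weeks 1 and 3 the 5-week fold changes of EGFR, EREG, TGFA and NRG1 were smaller and those of ERBB3 larger in size. With CSE 10% all 8 genes passed the test in the same direction as against the 5-week controls, 5 higher and 3 lower, where 15% and 16% of transcript clusters were. NRG1 was higher by 1.53 (standard error 0.14, adjusted p = 2e-09), TGFA by 1.02, EGFR by 0.94 and EREG by 0.66. ERBB3 was at -1.56 (adjusted p = 1.1e-15), ERBB2 at -0.95 and HBEGF at -0.91. With CSE 5% the 4 rises were 1.24 for NRG1, 0.87 for TGFA, 0.51 for EGFR and 0.37 for EREG (adjusted p = 0.00371 for the last), against a background of 13.1% higher and 13% lower. With CSE 1% only NRG1 was still higher, by 0.67 (adjusted p = 0.00147, background 7.86%). EGFR (0.20, adjusted p = 0.0517), TGFA (0.18, 0.252) and EREG (0.10, 0.533) no longer passed. ERBB3 was at -1.05, where it had been at -0.42 against the 5-week controls. HBEGF was lower, at -0.34 (adjusted p = 0.023, background 7.43%), where it had been at 0.02. Comparisons with the controls of weeks 1 and 3 also hold the change of control cells between weeks. Exposure and time in culture cannot be told apart in them. In control cells at 1, 3 and 5 weeks ERBB3 averaged 10.55, 10.06 and 9.675, and HBEGF 8.88, 7.49 and 7.83.

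**Figure D4:**
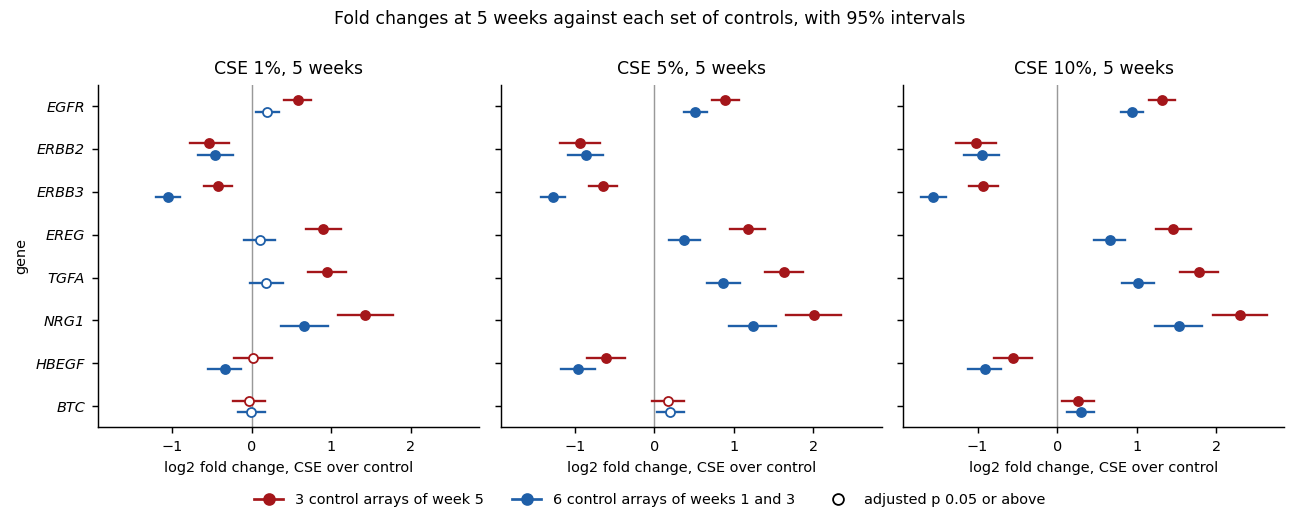
Log2 fold change at 5 weeks (x axis) with CSE 1%, 5% and 10% over the 3 control arrays of week 5 and over the 6 control arrays of weeks 1 and 3, with 95% intervals; filled points have an adjusted p under 0.05. EGFR, EREG, TGFA and NRG1 lie nearer 0 against the earlier controls, ERBB3 and HBEGF farther below it, and ERBB2 hardly moves.

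The effect of exposure differed between weeks in 19 of 48 tests of the difference itself (8 genes, 3 concentrations, 3 weeks and 5 weeks each against 1 week). The difference is signed, so that a fall that became smaller counts as higher. At 3 weeks against 1 week it was higher in 2 genes with CSE 1% (2.16% of transcript clusters, and 2.74% lower), in 1 with CSE 5% (1.69%, and 1.54% lower) and in 2 with CSE 10% (4.66%), where it was lower in 2 (4.46%). At 5 weeks against 1 week it was higher in 3 genes with CSE 1% (10.8%, and 10.2% lower), in 3 with CSE 5% (15.1%) and lower in 2 (15.7%), and higher in 3 with CSE 10% (13.6%) and lower in 1 (16%). The rise of TGFA with CSE 10% exceeded at 5 weeks that at 1 week by 1.32 (standard error 0.17, adjusted p = 1.3e-06) and that of NRG1 by 1.07 (adjusted p = 0.00139), while that of HBEGF was lower, with a difference of -1.27 (adjusted p = 2.8e-06). For EGFR with CSE 5% and 10% the difference between 5 weeks and 1 week did not pass, with values of 0.20 and 0.12 and intervals of -0.03 to 0.44 and -0.12 to 0.35.

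Across the 12 group means, EGFR and ERBB2 ran in opposite directions (Pearson r = -0.913), and ERBB2 and ERBB3 together (0.731). TGFA and NRG1 had an r of 0.928, EGFR and NRG1 0.860, and EGFR and HBEGF 0.090. These are descriptions over 12 points that share weeks, controls and normalization. Among all genes named by a single symbol, the pattern most like that of EGFR was that of SLC25A37, a mitochondrial iron carrier (r = 0.984), followed by TSPYL2 (0.962). GPI, the glycolytic glucose-6-phosphate isomerase (0.968), and MMS19 (0.960) were closest to ERBB2, NKAIN3 and LHPP to ERBB3 (0.971 and 0.969), and UGCG, the enzyme that makes glucosylceramide, and GLCCI1 to EREG (0.966 and 0.958). For HBEGF they were EMP1, an epithelial membrane protein, and KCNG1 (0.967 and 0.958), for TGFA STEAP2, a metalloreductase, and FEZ2 (0.978 and 0.973), for BTC ZNF211 and VSTM2L (0.931 and 0.918) and for NRG1 SLC4A7, a bicarbonate transporter, and the centrosomal gene CEP170 (0.992 and 0.983).

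The other genes of the family and of the pathway are described by counts and medians with CSE 5%, beside those of all transcript clusters. With CSE 5%, 5.99%, 9.7% and 23% of all transcript clusters were higher at 1, 3 and 5 weeks and 4.84%, 9.93% and 40.3% lower, with medians of -0.03, -0.04 and -0.17, and against the earlier controls (those of weeks 1 and 3) 13.1% were higher and 13% lower at 5 weeks. Of the 6 remaining family genes (ERBB4, EGF, EPGN, NRG2, NRG3, NRG4), 1 was higher (23% of all transcript clusters) and 3 lower (40.3%) at 5 weeks, with a median of -0.21, close to the shares and the median of all. EGF, the founding ligand, averaged 6.61 and 5.71 in cells with CSE 5% and in control cells, both below the median of all transcript clusters, a difference of 0.90 (adjusted p = 1.1e-05, and 0.87 over the earlier controls). ERBB4, the fourth receptor, was at -0.59 and NRG2 at -0.42 (adjusted p = 0.000117 and 0.000343), but with the earlier controls they were at 0.10 and -0.15 (adjusted p = 0.535 and 0.191). At 1 and 3 weeks 1 of the 6 passed the test each time, NRG4, a ligand of ERBB4, at -0.58 at 1 week (adjusted p = 0.0105) and EGF at 0.46 at 3 weeks (0.0263). NRG4 was called in both directions at 5 weeks, at 0.81 with CSE 1% and -0.59 with CSE 10% (adjusted p = 0.000117 and 0.00154). With the earlier controls the rise was not seen. NRG4 was then at -0.23, -0.87 and -1.63 with CSE 1%, 5% and 10% (adjusted p = 0.284, 8.5e-06 and 8.1e-11). It is named here after its values were seen.

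Of 6 genes of ligand shedding 2, 5 and 3 were higher at 1, 3 and 5 weeks and 1 was lower each time, with medians of 0.23, 0.48 and 0.75 against -0.03, -0.04 and -0.17 for all transcript clusters. ADAM17, the main sheddase of TGFA and other ligands, averaged 10.26 and 8.92 in cells with CSE 5% and in control cells at 5 weeks, a difference of 1.34 (standard error 0.098, adjusted p = 1e-11), and at 1 and 3 weeks it was higher by 0.71 and 0.74. ADAM9, a related metalloprotease, was higher by 0.98, 0.87 and 1.74 at 1, 3 and 5 weeks. ADAM12, another protease implicated in the release of HBEGF, was lower at each week, at -1.41, -1.52 and -1.31 (adjusted p = 4.9e-10, 5.8e-11 and 5.9e-10). For these 3 genes the 5-week values over the earlier controls were 0.66 for ADAM17, 0.90 for ADAM9 and -1.33 for ADAM12 (adjusted p = 6.6e-07, 8.5e-05 and 2.4e-11), and 4 genes were higher and 1 lower.

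Of 8 adaptor and receptor turnover genes that were read, 3, 4 and 7 were higher with CSE 5% at 1, 3 and 5 weeks (5.99%, 9.7% and 23% of all transcript clusters) and the others did not pass the test, with medians of 0.36, 0.25 and 0.63. SOS1 and SOS2, which load RAS with GTP, and the docking protein GAB1 were higher by 1.72, 1.27 and 1.10 at 5 weeks (adjusted p = 3.5e-08, 8.8e-07 and 6.4e-08). With the earlier controls 3 of the 8 were higher and 2 lower, with SOS1 at 0.56, SOS2 at 0.27 and GAB1 at 0.67 (adjusted p = 0.0121, 0.192 and 3.1e-05). Of 14 genes of RAS, RAF, MEK, ERK and PI3K 7 were read, and 1 was higher and 4 lower at 5 weeks, where 23% and 40.3% of all transcript clusters were. PIK3R1, the regulatory subunit of PI3K, was higher by 1.49, and HRAS and MAP2K2, which encodes MEK2, were at -0.76 and -0.56 (adjusted p = 3.5e-07, 4.7e-06 and 0.000355). PIK3R1 was at 0.24 against the earlier controls (adjusted p = 0.321), HRAS at -0.28 and MAP2K2 at -0.29 (0.0401 and 0.0421).

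Feedback inhibitors rose more often than they fell, while genes induced by ERK did not keep 1 direction. Of 12 feedback inhibitors 3, 6 and 9 were higher with CSE 5% at 1, 3 and 5 weeks, 1 was lower at 3 weeks and 2 were at 5 weeks, with medians of 0.26, 0.31 and 0.61. Of all transcript clusters 5.99%, 9.7% and 23% were higher and, at 3 and 5 weeks, 9.93% and 40.3% lower, with medians of -0.03, -0.04 and -0.17. SPRED1 and SPRY1, inhibitors of RAS and ERK signalling, were higher by 1.92 and 0.85 at 5 weeks (adjusted p = 8.5e-10 and 2.7e-08). DUSP5, a phosphatase of nuclear ERK, was at -1.58 (adjusted p = 3.9e-10). Set against the earlier controls, 7 were higher and 3 lower, with SPRED1 at 0.74, SPRY1 at 0.62 and DUSP5 at -1.15 (adjusted p = 0.000469, 7.3e-07 and 1.4e-08). Of 10 genes that ERK induces, 5, 3 and 3 were higher with CSE 5% at 1, 3 and 5 weeks (background 5.99%, 9.7% and 23%) and 1, 3 and 7 were lower (4.84%, 9.93% and 40.3%). The immediate early genes EGR1, FOS and JUN were at -2.21, -1.52 and -0.93 at 5 weeks (adjusted p = 2.6e-11, 6.3e-11 and 6.3e-08). With CSE 10% at 1 week, by contrast, 8 of the 10 were higher (background 8.27%), with EGR1 at 1.38 (adjusted p = 4.2e-07). Against the earlier controls 2 were higher and 3 lower with CSE 5% at 5 weeks, with EGR1 at -0.80, FOS at -1.17 and JUN at -0.21 (adjusted p = 0.000122, 7.3e-10 and 0.0931). Genes used as markers of cell type were called as well. Of 6 epithelial markers 4 were lower and 1 higher with CSE 5% at 5 weeks (40.3% and 23% of all transcript clusters). With CSE 10% 5 were lower (39.6%), EPCAM among them at -1.02. Against the earlier controls all 6 were lower with CSE 5% (13%). Of 7 markers of other cells all were lower with CSE 5% at 5 weeks (40.3%), and 1 was against the earlier controls (13%). Their part in the results was not tested.

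**Figure D5:**
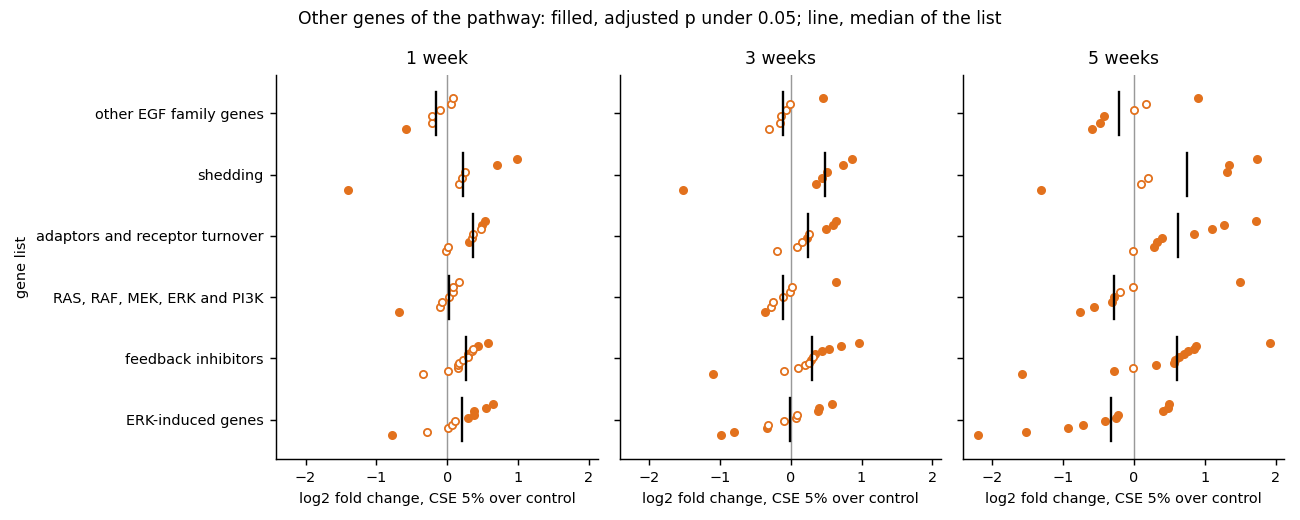
Log2 fold change with CSE 5% over the control cells of the same week (x axis) of each gene in 6 lists of family and pathway genes, at 1, 3 and 5 weeks; filled points have an adjusted p under 0.05 and the vertical lines are list medians. The shedding, adaptor and feedback lists have medians above 0 in each panel, and the ERK-induced genes spread to both sides, with their lowest point, EGR1, at -2.21 at 5 weeks.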

How the data were processed

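RNA of 36 cultures of A549 cells was hybridised to 1-colour Human Gene 1.0 ST arrays. The authors deposited log2 values after RMA, per the labels, and the submitters' notes name R 2.11.0 and limma. RMA corrects background, equalises the distribution of values between arrays and summarises probes by transcript cluster, so that a shift shared by most genes can be reduced. In the deposited values the median change of all transcript clusters at 5 weeks was still -0.139, -0.167 and -0.175 with CSE 1%, 5% and 10%. For the array annotation a genome build was not given in the sources used here, and no spot intensities were used. Array medians ran from 6.72 to 6.91 and correlations between arrays from 0.915 to 0.996; precision is set by the number of arrays.

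Genes were named from the platform annotation, where 19460 transcript clusters carried 1 symbol, 1754 several and 12083 none. Groups were taken from the sample titles. The deposited values were fitted with limma 3.58.1 in R 4.3.3, a mean for each of 12 groups with 24 residual degrees of freedom. Contrasts set CSE against the control cells of its week, 1 concentration against another, the effect of exposure at 3 and 5 weeks against 1 week, and control cells between weeks. P-values were adjusted by Benjamini and Hochberg over 33297 transcript clusters. Intervals are 95%. Replicates are separate experiments on 1 line, so that p-values measure the spread between those.

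All 9 genes were named by rule, with up to 3 genes of each pathway list (the smallest p with CSE 5% at 5 weeks) and, for each gene, the 2 genes with the most similar group means (Pearson r). The genes and lists were chosen with earlier results of these data known, and the pathway counts against the controls of weeks 1 and 3 were added after seeing the data. Some genes of the pathway and marker lists are not analysed here. Simulated data with the groups and the spread of these arrays served to test the fit over 33297 transcript clusters. In CSE 5% at 5 weeks 50 transcript clusters were changed by each of 1, -1, 0.5 and -0.5 on the log2 scale, and 33097 were not. Against control, the fit called 82% and 98% of changes of 1 and -1, 58% and 42% of changes of 0.5 and -0.5, and 0.0272% of unchanged transcript clusters. In the real comparison 23% were higher and 40.3% lower, so these rates do not carry over to it. Alternatives were the methods' call (log2 fold change beyond 1 and B above 0), a fit of each week alone, the replicate number as a block, the 60% brightest transcript clusters, cyclic loess, centring on 29 housekeeping genes (a list written after the data were seen), the controls of weeks 1 and 3, a trended and robust variance, the mean of a gene's transcript clusters, and each array left out in turn. Promoter windows were matched by symbol to RefSeq on GRCh38.p14.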

Additional observations from a re-analysis of the deposited data

Results flagged for a closer look

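The effect of exposure, the difference between exposed and control cells of the same week on the log2 scale, was set against its own value at 1 week for 8 genes, 3 concentrations and 2 later weeks. Of these 48 differences 19 passed limma's test (Benjamini-Hochberg over all 33297 transcript clusters), 8 genes being chosen with earlier results known. Of all transcript clusters, 1.69% to 4.66% were higher and 1.54% to 4.46% lower across the concentrations at 3 weeks against 1 week. At 5 weeks against 1 week 10.8% to 15.1% were higher and 10.2% to 16% lower. Every difference holds the control cells of both weeks, which changed as well, and those of 5 weeks hold the control arrays whose labels conflict.

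The effect of exposure on TGFA was larger at the later weeks. At 3 weeks it exceeded that at 1 week by 0.64 (adjusted p = 0.026) with CSE 5% and by 0.68 (adjusted p = 0.00717) with CSE 10%. At 5 weeks the excess was 0.66 (adjusted p = 0.0059), 1.04 (adjusted p = 5.9e-05) and 1.32 (adjusted p = 1.3e-06) with CSE 1%, 5% and 10%. The call with CSE 5% at 3 weeks was lost without any of 5 of the 12 arrays. With CSE 1% TGFA averaged 8.19 at 1 week and 7.91 at 5 weeks, and in control cells 7.91 and 6.96. Over the controls of weeks 1 and 3 the 5-week effect of CSE 1% on TGFA was 0.18 (adjusted p = 0.252), against 0.29 at 1 week.

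NRG1 gained at 5 weeks, by 0.81 (adjusted p = 0.0162), 1.12 (adjusted p = 0.00112) and 1.07 (adjusted p = 0.00139) with CSE 1%, 5% and 10%. Without control replicate 1 of 5 weeks, the low array, the first of these was 0.48 (adjusted p = 0.0576), and it was also lost without control replicate 1 (0.0582) or CSE 1% replicate 2 (0.0535) of 1 week. The further transcript cluster of NRG1 gave 0.22 (adjusted p = 0.414), 0.99 (0.000406) and 0.89 (0.000891). NRG1 in control cells averaged 8.62 at 1 week and 8.025 at 5 weeks. Over the controls of weeks 1 and 3, its 5-week effects with CSE 1%, 5% and 10% were 0.67, 1.24 and 1.53. Those at 1 week, over the controls of that week, were 0.62, 0.885 and 1.22. The effect of CSE 5% on EREG was larger at 5 weeks, by 0.65 (adjusted p = 0.00288). EREG with CSE 5% averaged 10.17 at 1 week and 9.85 at 5 weeks, and in control cells 9.65 and 8.68. Over the controls of weeks 1 and 3 its 5-week effect with CSE 5% was 0.37, against 0.52 at 1 week.

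HBEGF turned. With CSE 1% its effect at 3 weeks was above that at 1 week by 0.84 (adjusted p = 0.00197), while with CSE 10% it was lower at 3 weeks, at -1.19 (adjusted p = 1.5e-05). At 5 weeks the differences were -0.80 (adjusted p = 0.000997) with CSE 5% and -1.27 (adjusted p = 2.8e-06) with CSE 10%. HBEGF with CSE 1% averaged 9.15 at 1 week and 8.605 at 3 weeks. With CSE 10% it averaged 9.595, 7.02 and 7.27 at 1, 3 and 5 weeks, and in control cells 8.88, 7.49 and 7.83.

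Among the receptors, the effect of CSE 1% on EGFR was larger at 3 weeks by 0.41 (adjusted p = 0.0308) and at 5 weeks by 0.43 (adjusted p = 0.0085), whereas that of CSE 10% was smaller at 3 weeks, at -0.39 (adjusted p = 0.0289). Both 3-week calls of EGFR were lost without any of 7 and of 6 of the 12 arrays. Over the controls of weeks 1 and 3 the 5-week effect of CSE 1% on EGFR was 0.20 (adjusted p = 0.0517), against 0.14 at 1 week. Against control cells of the same week, the fall of ERBB3 with CSE 10% was smaller at the later weeks. The differences were 0.55 (adjusted p = 0.00382) at 3 weeks and 0.42 (adjusted p = 0.0123) at 5 weeks. ERBB3 with CSE 10% averaged 9.21, 9.26 and 8.75 at 1, 3 and 5 weeks, and in control cells 10.55, 10.06 and 9.675. Over the controls of weeks 1 and 3 its 5-week value with CSE 10% was -1.56, against -1.35 at 1 week. The fall of ERBB2 with CSE 5% was larger at 5 weeks, at -0.48 (adjusted p = 0.0363), and this call was lost without any of 8 of the 12 arrays.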

How the results depend on the processing

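With the methods' call, a log2 fold change beyond 1 with B above 0, fewer of the 8 genes were called: 0 higher and 0 lower with CSE 1% and with CSE 5% at 1 week, 3 higher with CSE 10% at 1 week (2 lower, as before), 1, 2 and 2 higher and 0 lower with CSE 1%, 5% and 10% at 3 weeks, 1 higher and 0 lower with CSE 1% at 5 weeks, 0 lower with CSE 5% and 1 lower with CSE 10% at 5 weeks. With CSE 1% at 3 weeks 1 gene was lower in a fit of that week alone and 1 after centring on housekeeping genes, since ERBB2 had an adjusted p of 0.122 and 0.119 there. The fit of each week alone ended 6 further calls: BTC with CSE 10% at 5 weeks (adjusted p = 0.0504), HBEGF with CSE 10% over CSE 5% and over CSE 1% at 1 week (0.126 and 0.102), and at 5 weeks EGFR with CSE 5% over CSE 1% (0.252) and CSE 10% over CSE 5% (0.137) and TGFA with CSE 5% over CSE 1% (0.052). Against the controls of weeks 1 and 3, 1 gene was higher with CSE 1% at 5 weeks, and HBEGF was at -0.34 (adjusted p = 0.023) where it had been at 0.02. The cause of these differences was not tested.

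Without 1 array in turn, the count of genes higher ranged from 1 to 2 with CSE 1% at 1 week and from 4 to 5 with CSE 5% at 1 and 3 weeks and CSE 10% at 5 weeks, and the count lower from 1 to 2 with CSE 5% at 1 week and CSE 1% at 3 weeks. Among values with 1 array left out, 1493 kept their side of the threshold, 82 lost the call and 9 gained it. A value that passed in neither fit could change its sign and still count among the 1493. In control cells NRG1 at 5 weeks against 1 week was at -0.27 (adjusted p = 0.107) without control replicate 1 of 5 weeks.

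Whether the replicate numbers pair the arrays was described by correlation, which cannot decide it. Of 27 pairs of an exposed and a control array with the same number, 6 had deviations that correlated above 0.1, with r from -0.21 to 0.50. In 10 of the 27 the exposed array correlated best with the control array of its own replicate number. As a replicate block the number ended 2 calls and left 214 values on their side of the threshold. Those lost were BTC with CSE 5% at 1 week (0.30, adjusted p = 0.0581) and TGFA in control cells at 3 weeks against 1 week (-0.36, adjusted p = 0.0552). A trended and robust variance and the brightest 60% of transcript clusters changed 0 of 72 values each. Cyclic loess added 6 calls, left 210 values on their side and moved the median of all transcript clusters at 5 weeks to between -0.02 and -0.03, from between -0.14 and -0.18. RMA arrays give no count of detected molecules, so the low level of BTC bounds no difference.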
